A study of Mus musculus with 4 samples.

Results

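The genes described here are those of the proteasome, chosen by name: of the 19090 genes in the deposited table, 50 symbols begin with Psma, Psmb, Psmc, Psmd, Psme, Psmf or Psmg and a digit. Compared among them were the constitutive subunits and the immunoproteasome genes Psmb8, Psmb9, Psmb10, Psme1 and Psme2. RNA was measured with Visium, which captures the transcripts of a tissue section on an array of barcoded spots, each covering parts of several cells. The material was 1 hemisphere section, 10 µm thick, from each of 4 male mice aged 9 months. One was wild-type. The Dp16 mouse carries a duplicated stretch of chromosome 16 orthologous to much of human chromosome 21, and is used as a model of Down syndrome. The 5xFAD mouse carries human transgenes bearing mutations of familial Alzheimer's disease, expressed under the neuronal Thy1 promoter, and forms amyloid plaques. The 5xFAD-Dp16 mouse carries both. A genotype thus had 1 section, so differences between genotypes have no replicate check and no p-value. Where 4 values follow each other they are for wild-type, Dp16, 5xFAD, then 5xFAD-Dp16.

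The proteasome is the protease that degrades ubiquitin-tagged proteins. Its barrel, the 20S core particle, has outer rings of alpha subunits (Psma genes) and inner rings of beta subunits (Psmb genes), and the beta subunits encoded by Psmb5, Psmb6 and Psmb7 hold the active sites. The 19S regulatory particle (Psmc ATPases and Psmd subunits) binds, unfolds and feeds in the substrate. Interferons induce replacement catalytic subunits, of which Psmb8 takes the place of Psmb5, Psmb9 that of Psmb6 and Psmb10 that of Psmb7, giving the immunoproteasome. Interferons also induce the 11S activator of Psme1 and Psme2, which favours the production of peptides for class I antigen presentation. In brain, constitutive proteasomes are found in all cells, and the immunoproteasome is best known from activated microglia.

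Of the 50 names, 31 are constitutive subunits of the 20S core (14) and 19S particle (17). One, Psmc3ip, is a cofactor of meiotic recombination that shares the prefix and is no subunit, and Psme2b is a near-copy of Psme2, so reads of that pair may be split between them. Psma8 and Psmb11, subunits of the testis and the thymus, lay below 0.4 CPM in every section, where CPM is counts per 1000000 unique molecules (UMIs) of the section. With these, Psme2b (0.23 to 0.38 CPM), Psmb9 and Psmc3ip were under the mean of 5 CPM set for testing, which left 45 genes in the comparisons between sections. The sections held 2347 to 2941 spots and 26049860 to 36461389 UMIs, with medians of 9404 to 11639 UMIs per spot. Of 3164 spot barcodes, 2879 occurred in more than 1 section, since every Visium array carries the same set of positions. The brain identity of the sections was checked with neuronal markers such as Snap25 and Slc17a7, whose list summed to 3258 to 4302 CPM. Spots of expression clusters 12 and 13, left out in an alternative given below, were 2.46% of spots in wild-type and 5.83 to 6.22% elsewhere, and choroid plexus markers summed to 6894, 32513, 19318 and 14742 CPM. Homeostatic microglial markers summed to 249, 189, 372 and 309 CPM. A spot sums many cells, so fewer cells of a type and less RNA per cell cannot be told apart.

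The promoters of 6 of the genes that carry the results below are shown. They come from RefSeq for GRCm38.p6, the assembly of mm10, and run from 250 bases before the annotated start to 20 bases after it, on the strand of the gene. Capitals mark matches to 4 motifs searched on both strands in the window of 250 bases before to 50 bases after the start: TGACNNNGC, the core of the antioxidant response element; GAAA followed by any 2 bases and GAAA, the interferon-stimulated response element; TTCNNNGAA, the STAT element; and CCAAT, the NF-Y box. Psmb8, Psmb9 and Psme1 are immunoproteasome genes, Psmg1 lies in the duplicated segment, Psme4 stood out at plaques, and Psmb5 is the constitutive counterpart of Psmb8. The windows are chr17:34197945-34198214 (plus strand) for Psmb8, chr17:34187311-34187580 (minus strand) for Psmb9, chr14:55578244-55578513 (plus strand) for Psme1, chr16:95990941-95991210 (minus strand) for Psmg1, chr11:30771525-30771794 (plus strand) for Psme4 and chr14:54617976-54618245 (minus strand) for Psmb5.
Psmb8: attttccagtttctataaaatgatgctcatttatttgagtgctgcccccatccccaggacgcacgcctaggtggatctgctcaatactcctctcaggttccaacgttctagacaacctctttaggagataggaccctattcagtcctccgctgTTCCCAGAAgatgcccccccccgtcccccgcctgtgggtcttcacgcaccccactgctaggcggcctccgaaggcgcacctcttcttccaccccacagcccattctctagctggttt
Psmb9: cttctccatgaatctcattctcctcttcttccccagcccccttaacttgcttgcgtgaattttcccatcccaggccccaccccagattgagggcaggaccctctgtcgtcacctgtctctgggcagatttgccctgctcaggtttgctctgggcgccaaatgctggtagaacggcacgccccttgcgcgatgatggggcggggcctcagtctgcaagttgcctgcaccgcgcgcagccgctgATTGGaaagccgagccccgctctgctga
Psme1: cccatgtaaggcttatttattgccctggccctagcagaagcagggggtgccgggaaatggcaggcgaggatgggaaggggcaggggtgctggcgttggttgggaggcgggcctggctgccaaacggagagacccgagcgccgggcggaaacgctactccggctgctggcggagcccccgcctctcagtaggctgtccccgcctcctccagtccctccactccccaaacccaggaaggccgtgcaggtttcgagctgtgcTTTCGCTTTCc
Psmg1: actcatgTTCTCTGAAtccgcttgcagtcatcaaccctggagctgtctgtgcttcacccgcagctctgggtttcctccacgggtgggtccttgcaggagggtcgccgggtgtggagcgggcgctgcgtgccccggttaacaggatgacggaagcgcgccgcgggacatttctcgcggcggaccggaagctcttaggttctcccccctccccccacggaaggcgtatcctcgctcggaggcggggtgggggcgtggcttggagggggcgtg
Psme4: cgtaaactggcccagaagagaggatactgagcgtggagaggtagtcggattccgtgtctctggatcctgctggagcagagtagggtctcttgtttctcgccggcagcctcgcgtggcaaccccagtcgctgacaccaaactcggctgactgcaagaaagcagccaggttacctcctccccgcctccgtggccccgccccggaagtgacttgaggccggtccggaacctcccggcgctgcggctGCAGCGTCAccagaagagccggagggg
Psmb5: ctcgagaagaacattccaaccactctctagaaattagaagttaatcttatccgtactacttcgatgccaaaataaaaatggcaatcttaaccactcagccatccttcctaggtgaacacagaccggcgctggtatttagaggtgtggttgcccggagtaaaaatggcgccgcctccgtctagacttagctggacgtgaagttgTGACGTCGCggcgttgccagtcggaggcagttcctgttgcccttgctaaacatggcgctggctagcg

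A promoter was held for 42 of the 50 genes. The STAT letters occurred in Psmb8, Psmd2 and Psmg1, that is in 3 of these 42 (7.14%), against 9.55% of all genes with a promoter and 8.30% of all promoters. The interferon-stimulated letters occurred in 5 (Psmb3, Psmd4, Psmd9, Psme1 and Psmg4; 11.9%), against 3.99% of genes and 3.44% of promoters. Those of the antioxidant element occurred in 6 (Psmb5, Psmb6, Psmc6, Psmd9, Psmd12 and Psme4; 14.3%), against 13.99% of genes and 12.4% of promoters. The NF-Y box occurred in 15 (35.7%), Psmb9 among them, against 41.1% of genes and 37.4% of promoters. In Psmb8 the match TTCCCAGAA begins 97 bases before the start, in Psmg1 TTCTCTGAA 243 bases before it, and in Psme4 GCAGCGTCA 7 bases before it. In Psme1 the interferon-stimulated letters lie just after the start, on the opposite strand. No match in the 6 printed windows overlaps another. Psmb10, Psmd1 and Psme2, which carry results too and are not printed, held no match to any of these motifs. These matches describe letters only, and no binding was measured.

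The first comparison asks how these genes differed with the duplication, read in 2 pairs that share no section: Dp16 against wild-type, then 5xFAD-Dp16 against 5xFAD. Ratios are log2 of CPM ratios less the median over the 11033 genes of at least 5 CPM, called relative log2 here, with exact 95% intervals for counting error alone. That median was -0.13 in the first pair and -0.07 in the second, so relative values lie above plain log2 CPM ratios by that much. In the pairs of the 5xFAD contrast below it was -0.08 and -0.03. A gene was called where the ratio passed 1.2-fold and its interval excluded 0. By that rule 4 of the 45 genes were higher in both pairs, namely Psmg1, Psmb8, Psmb10 and Psme1, against 2.88% of all genes. None was lower in both, against 1.45% of all genes.

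Psmg1 encodes PAC1, a chaperone that pairs with the Psmg2 product to assemble the alpha ring. It is the only name of the 50 that lies in the duplicated segment (chromosome 16, 75540514 to 97962627), at chr16:95979933-95990960. Its level was 16.4, 24.5, 16.6 and 25.9 CPM. Both sections with the duplication lay above both without it, and the counting intervals of the former did not meet those of the latter. Its relative log2 was 0.71 (0.55 to 0.87) in the first pair and 0.72 (0.55 to 0.88) in the second. The 71 tested genes of the segment had medians of 0.54 and 0.58, and Psmg1 ranked 21st and 20th among them. Within region labels Psmg1 was above 0 in 11 of 12 regions in the first pair and in 10 of 12 in the second, beyond counting error in 4 and 7. Its neighbours on the chromosome, the chromatin genes Brwd1 (0.45 and 0.66) and Hmgn1 (0.67 and 0.91), were also higher in both. Psmg2, the partner chaperone, had 0.01 and -0.03, and the other alpha-ring chaperone pair gave 0.05 and 0.04 for Psmg3 and 0.28 and 0.23 for Psmg4. Psmd2, a scaffold of the 19S base, also lies on chromosome 16 but outside the segment, at chr16:20651122-20663414, and had 0.14 and -0.20.

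**Figure D1:**
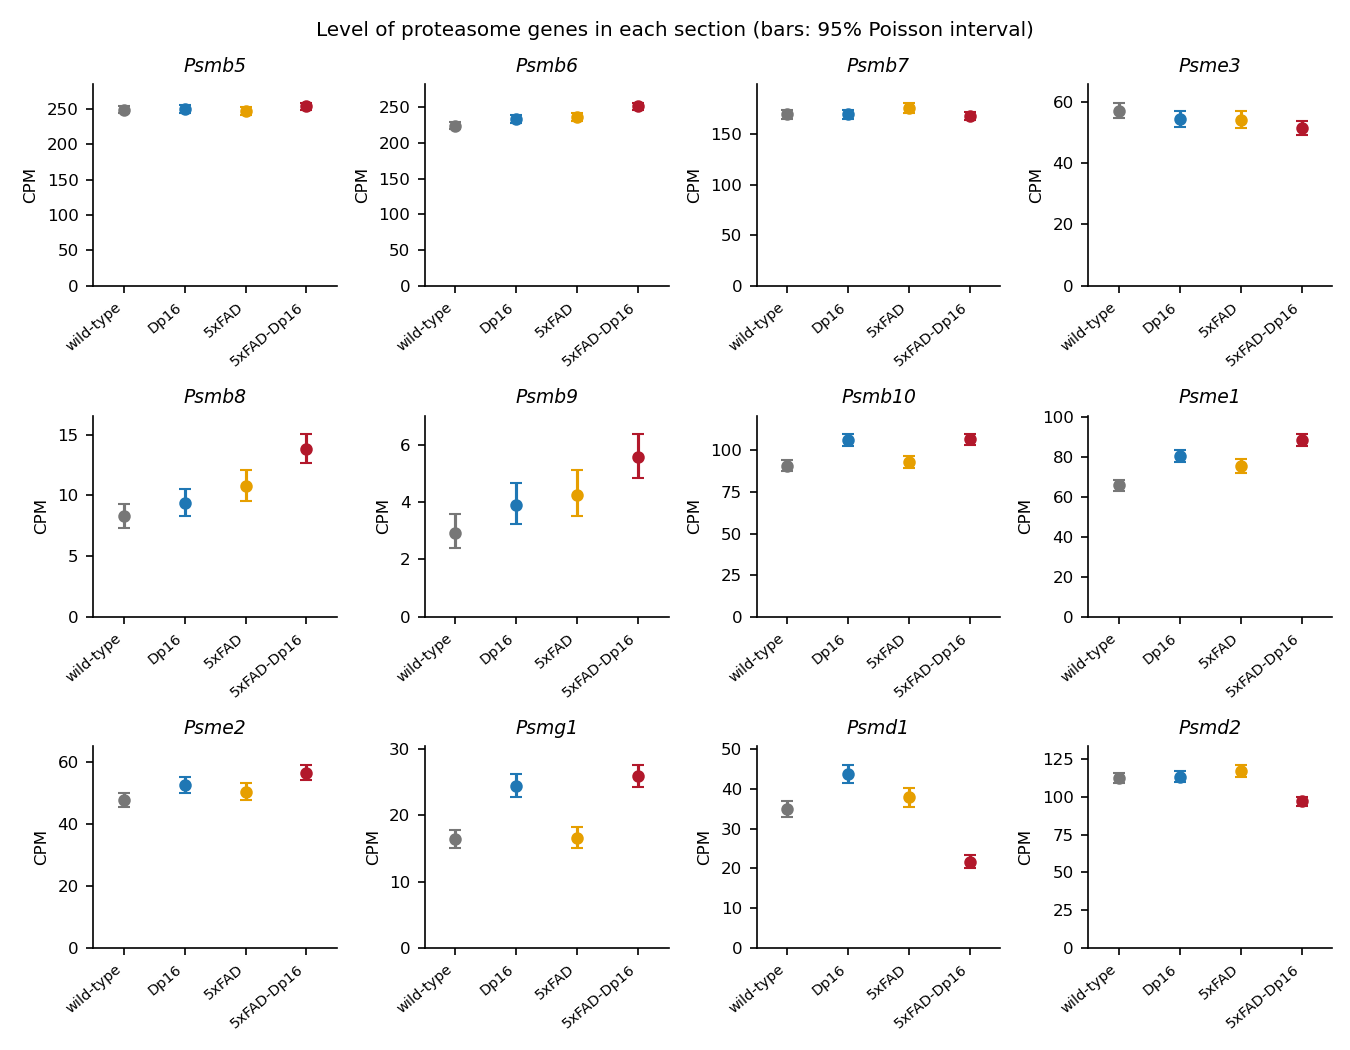
Level in CPM (y axis, from 0) of 12 proteasome genes in each section (x axis). Points are single sections and bars are 95% Poisson intervals of the count. Psmg1 stands at 24.5 and 25.9 CPM in the sections with the duplication against 16.4 and 16.6 without it, Psmb8 is highest in 5xFAD-Dp16 at 13.8, and Psmd1 is lowest there at 21.7.

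The interferon-inducible genes formed the rest of the calls. Psmb10, which replaces Psmb7, was at 90.9, 106, 92.8 and 107 CPM, so that the sections with the duplication stood apart from those without. Its relative log2 was 0.36 (0.28 to 0.43) and 0.27 (0.20 to 0.35). Psme1, the alpha subunit of the 11S activator, was at 65.7, 80.2, 75.4 and 88.3 CPM, with 0.42 (0.34 to 0.50) and 0.30 (0.22 to 0.38). Here wild-type was lowest and 5xFAD-Dp16 highest, while the counting intervals of 5xFAD and Dp16 met. The region labels where Psme1 was highest were Hypothalamus and VL, with medians of 110 and 107 CPM over the sections. Hypothalamus held 254, 337, 283 and 487 spots and VL 52, 102, 40 and 95. Psmb10 was highest in Hypothalamus (median 131 CPM) and lowest in VL (44.0). Values at a common mix of regions are given below. Psme1 overlaps Emc9 in the annotation. Whether reads of Emc9 were counted as Psme1 was not checked, as no source used here gives the strand of counting. Psme2, the beta subunit, was at 47.5, 52.3, 50.2 and 56.5 CPM, and its 0.27 and 0.24 passed 1.2-fold in the first pair only. Psmb8 was at 8.27, 9.36, 10.7 and 13.8 CPM, with 0.31 (0.069 to 0.55) and 0.44 (0.22 to 0.65). Only the 5xFAD-Dp16 section stood clear of the others. By region label Psmb8 was above 0 in 7 and 9 of 12 regions, beyond counting error in 0 and 4. Psmb9, below the level set for testing, was at 2.94, 3.92, 4.26 and 5.57 CPM. As plain CPM ratios, Psmb10 in both pairs, Psmb8 in the first and Psme1 in the second stayed under 1.2-fold.

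Beside these genes, 2 of 6 tested genes for class I antigen presentation, to which the immunoproteasome supplies peptides, were higher in both pairs, against 2.88% of all genes: the heavy chain H2-K1 (0.51 and 0.39) and the peptide transporter Tap1 (0.40 and 0.27). Homeostatic microglial markers had medians of -0.28 and -0.13 and plaque-associated ones -0.13 and -0.13, while choroid plexus markers had 2.37 and -0.32. Other lists moved in the first pair too, where 13.4% of all genes were called higher and 10.6% lower. Medians there were 1.26 for meninges (4 of 4 higher), -1.32 for blood (4 of 4 lower) and 0.30 for endothelium and mural cells (3 of 6 higher). In the second pair these lists had -0.03, -0.22 and 0.02. Their part in the results was not tested. Without the spots of clusters 12 and 13 the Psmb8 value of the first pair was 0.096 and its interval held 0. With levels standardised to a common mix of regions, 1 of the 4 genes, Psmg1, was called in both pairs; Psmb8 was then at 0.23 in the first pair, and Psme1 at 0.26 and Psmb10 at 0.25 in the second, just under 1.2-fold.

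Relative to the median gene, constitutive subunits differed by small amounts, mostly upwards. In plain CPM the summed level of the 31 was nearly the same within each Dp16 pair, at 4248, 4267, 4360.2 and 4349 CPM. Their median relative log2 was 0.13 in the first Dp16 pair and 0.05 in the second, and none was called in both pairs. Above the median of all genes were 28 of 31 in the first pair and 21 in the second, and 19 in both (13 of 14 in the 20S core and 6 of 17 in the 19S particle), against 32.3% of all genes. By particle, the 14 subunits of the 20S core had medians of 0.14 and 0.12 and the 17 of the 19S particle 0.12 and -0.00011. The active-site subunits differed little. Psmb5 was at 249, 250.5, 247 and 254 CPM, Psmb6 at 224, 234, 236 and 251, and Psmb7 at 170, 170, 176 and 168. In single pairs, 8 of 45 genes were higher in Dp16 over wild-type, against 13.4% of all genes, the 4 above with Psme2, Psmg4, Psmd1 and the ATPase Psmc5 (0.30), and 4 in 5xFAD-Dp16 over 5xFAD, against 7.45%. None and 1 (Psmd1) were lower, against 10.6% and 6.43%. The lowest by the larger of both ratios were the 19S lid subunit Psmd11 (-0.09 and -0.10), the activator Psme4 (-0.09 and -0.10), Psmg2, and the lid subunit Psmd7 (0.02 and -0.01), none of which passed 1.2-fold.

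**Figure D2:**
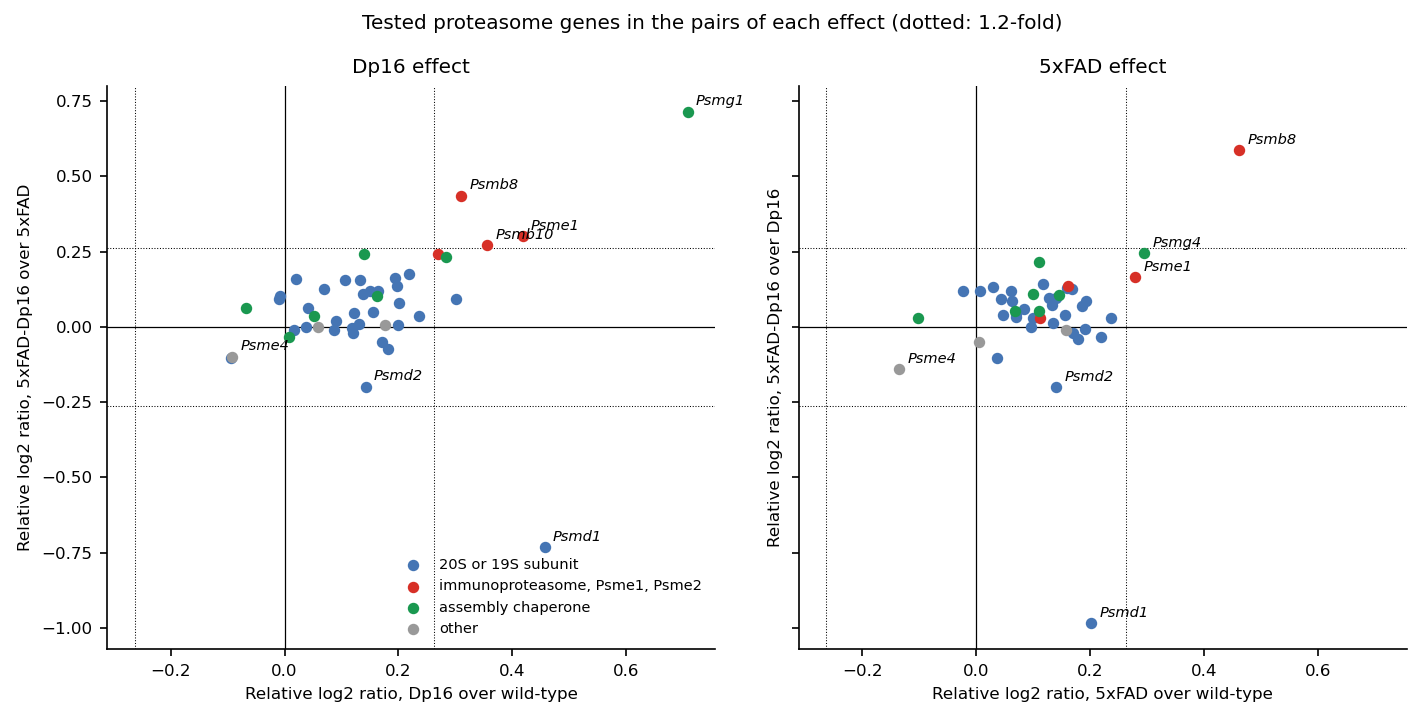
Relative log2 ratio of the 45 tested genes in one pair of sections (x axis) and in the pair that shares no section with it (y axis), for the Dp16 effect (left) and the 5xFAD effect (right). Dotted lines mark 1.2-fold and colours the role. Psmg1 (0.71 and 0.72) lies apart on the left, Psmb8 (0.46 and 0.59) on the right, and Psmd1 is low in 5xFAD-Dp16 in both panels.

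The second comparison asks how they differed with the 5xFAD transgenes, in 5xFAD against wild-type, then 5xFAD-Dp16 against Dp16. Only Psmb8 was higher in both pairs, 1 of 45, against 1.46% of all genes, and none was lower in both, against 0.924%. A single gene is close to that background share. Psmb8 had relative log2 of 0.46 (0.22 to 0.70) and 0.59 (0.38 to 0.80), and by region label it was above 0 in 11 and 10 of 12 regions, beyond counting error in 1 and 3. Its partner Psmb9 had 0.62 and 0.53, untested at this level, while Psmb10 had 0.11 and 0.03. Psmg4, a chaperone of alpha-ring assembly, followed with 0.29 and 0.25, then Psme1 with 0.28 and 0.16 and Psme2 with 0.16 and 0.14. At the low end were Psme4 (-0.13 and -0.14), Psme3 (0.01 and -0.05), the 19S assembly chaperone Psmd5 (-0.10 and 0.03) and the lid subunit Psmd3 (0.04 and -0.10). In the single pairs 3 (Psmb8, Psmg4 and Psme1) and 1 (Psmb8) were higher, against 9.15% and 5.86% of all genes, and 0 and 1 (Psmd1) lower, against 7.97% and 6.73%. The constitutive subunits had medians of 0.13 and 0.04, with 30 and 24 of 31 above the median of all genes and 23 in both pairs, against 28.9% of all genes.

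Microglial and antigen-presentation genes moved with Psmb8 in this contrast. Homeostatic microglial markers were higher in both pairs for 6 of 7 genes and plaque-associated ones, such as Trem2, for 7 of 7 tested, against 1.46% of all genes. The plaque-associated sum was 538, 563, 1414 and 1260.4 CPM, and its most selective members, Cst7 and Itgax, were below 1 CPM in both sections without the transgenes. Of 6 tested genes for class I processing, 3 were higher in both pairs, against the same 1.46%, namely B2m (0.81 and 0.82), the light chain of class I molecules, and the heavy chains H2-D1 (0.65 and 0.78) and H2-K1 (0.59 and 0.47). Other lists differed in these pairs too, some with opposite signs. Choroid plexus markers had medians of 1.57 and -1.003, with 5 of 5 called higher, then 5 of 5 lower. Meninges had 0.67 and -0.54, blood -0.26 and 0.86, and neurons -0.15 and -0.12. The part of all these lists in the Psmb8 result was not tested.

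As a share of all UMIs of the 6 catalytic genes, the 3 inducible ones held 13.7% (13.3 to 14.1), 15.4% (14.99 to 15.9), 14.1% (13.6 to 14.5) and 15.8% (15.3 to 16.2), with exact Clopper-Pearson intervals. The intervals of the sections with the duplication did not overlap those without it. Most of these UMIs were of Psmb10, since Psmb8 and Psmb9 together gave 10.97%, 11.1%, 13.9% and 15.4% of the inducible UMIs. Pair by pair, Psmb8 held 3.21%, 3.60%, 4.17% and 5.16% of Psmb5 and Psmb8, and Psmb10 held 34.9%, 38.5%, 34.5% and 38.8% of Psmb7 and Psmb10. The first of these shares was lowest in wild-type and highest in 5xFAD-Dp16, and the second separated the sections with the duplication from those without. UMIs of different genes are not levels of protein, so only the change of a share between sections can be read.

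Psmd1 broke the pattern of the constitutive subunits and was singled out after its values were seen. It encodes the largest scaffold of the 19S base, known as Rpn2. Its level was 34.9, 43.7, 37.9 and 21.7 CPM, the last below the other 3 with no overlap of counting intervals. Relative log2 was 0.46 (0.34 to 0.57) for Dp16 over wild-type and -0.73 (-0.87 to -0.59) for 5xFAD-Dp16 over 5xFAD, opposite in sign. It was 0.20 for 5xFAD over wild-type and -0.99 (-1.11 to -0.86) for 5xFAD-Dp16 over Dp16. The low value held across the tissue, being below 5xFAD beyond counting error in 9 of 12 regions and below Dp16 in 11 of 12. In Hippocampus, for example, Psmd1 was at 30.3, 34.3, 28.5 and 12.8 CPM. Ranked by its smallest drop below the other sections (-0.53, to wild-type), Psmd1 was the 8th lowest of 11033 genes, and the lowest of the 6481 genes with at least 20 CPM. The gene lies at chr1:86064619-86139295 and overlaps Htr2b and Gm22786. For 5xFAD-Dp16 over 5xFAD and over Dp16, the 4 tested genes nearest to it had -0.01 and 0.09 (Itm2c), 0.49 and 0.31 (4933407L21Rik), 0.26 and 0.32 (2810459M11Rik) and -0.16 and 0.0017 (Armc9). In the 19S base the 6 Psmc ATPases had medians of 0.0041 and 0.015 in those pairs and none was called in them. The other scaffold, Psmd2, was at 113, 113, 117 and 97.1 CPM and the ubiquitin receptor Adrm1, which docks on the Psmd1 protein, at 47.3, 55.9, 52.3 and 43.4 CPM. These 2 were lowest in 5xFAD-Dp16, with -0.20 and -0.20 for Psmd2 and -0.20 and -0.34 for Adrm1 against 5xFAD and Dp16. The Psmd2 values did not pass 1.2-fold. Both genes were picked as partners of Psmd1, not by the naming rule given below. Other 19S subunits were at their lowest CPM in that section too, such as Psmc2, Psmc3, Psmc4 and Psmd3, while Psmc5 and Psmd8 were at their highest. With 1 section for this genotype, a feature of this library or animal and an effect of the genotype cannot be told apart.

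**Figure D3:**
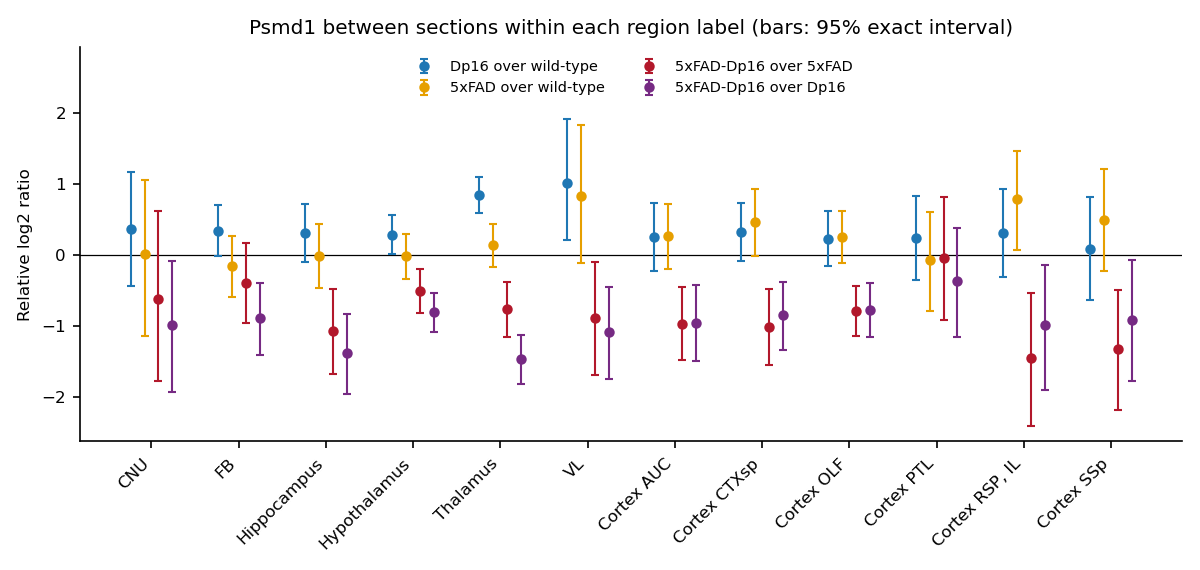
Relative log2 ratio of Psmd1 (y axis) within each of 12 region labels (x axis), for 4 pairs of sections. Bars are 95% exact intervals of counting error. The 5xFAD-Dp16 section lies below 5xFAD beyond counting error in 9 regions and below Dp16 in 11, whereas Dp16 over wild-type is above 0 in all 12.

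Partners of the proteasome outside the naming rule were read from a list of 22 genes, 21 of them tested, that holds shuttling receptors, deubiquitinases, and assembly and transcription factors. Its medians were 0.04 and -0.09 in the Dp16 pairs and 0.08 and -0.05 in the 5xFAD pairs. None was called in both pairs of either effect. The most abundant, the ubiquitin gene Ubb (0.08 and 0.04 in the Dp16 pairs, 0.14 and 0.10 in the 5xFAD pairs), stayed within 1.2-fold.

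The sections of 5xFAD and 5xFAD-Dp16 carry marks for plaque spots (324 and 396) and for their neighbours (628 and 759). Plaque spots were set against spots with neither mark, matched by region, over 10 and 11 regions. In each section 2 of 45 genes were higher at plaques, against 5.75% and 7.06% of all genes, and 0 and 2 were lower, against 5.02% and 6.72%. Those higher were Psmb8 and Psme4 in both sections, 2 of 45 against 2.28% of all genes, and none was lower in both, against 1.59%. This is a share near the background, and what follows describes these genes. Psmb8 was at 14.8 CPM in plaque spots and 8.22 in matched unmarked spots of 5xFAD, and at 22.5 and 12.9 in 5xFAD-Dp16. Its relative log2 was 0.87 (0.37 to 1.37) and 0.80 (0.44 to 1.17), from 52 and 100 UMIs at plaques. Psmb9 was at 7.67 against 2.96 CPM and 7.88 against 5.52, or 1.40 (0.67 to 2.13) and 0.51 (-0.11 to 1.13). Psmb10 did not pass 1.2-fold: 101 against 98.1 CPM and 109 against 111 gave 0.06 and -0.03.

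Psme4 encodes PA200, a nuclear activator that binds the 20S core without ATP. It stood at 16.5 against 10.99 CPM in 5xFAD and 14.4 against 9.10 in 5xFAD-Dp16, or 0.61 (0.15 to 1.07) and 0.66 (0.23 to 1.09), from 58 and 64 UMIs. Over whole sections it was at 14.6, 12.5, 12.5 and 11.1 CPM, so the sections with plaques were not the high ones. It overlaps Erlec1 and Gm12103. With at least 30 spots of each kind per region its value in 5xFAD-Dp16 was 0.38, and it was no longer called in both sections.

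Constitutive subunits showed medians of 0.04 and 0.01 at plaques, with summed levels of 4363 against 4327 CPM and 4433 against 4372. None was called in either section. The next highest were the lid subunit Psmd11 (0.29 and 0.14), Psmg4 (0.12 and 0.15) and Psmb5 (0.12 and 0.10). The lowest were Psmg1 (-0.24 and -0.39, the second past 1.2-fold), Psme1 (-0.17 and -0.13), the beta-ring subunit Psmb4 (-0.03 and -0.10) and the alpha-ring subunit Psma7 (-0.03 and -0.02). Psmd10, a 19S assembly chaperone, was the other gene called lower in 5xFAD-Dp16 (-0.32), with 0.21 in 5xFAD. Psme2 had 0.0042 and 0.10. Among partners, 1 of 21 was higher in both sections, against 2.28% of all genes. It was Nfe2l2, the oxidative-stress transcription factor, with 0.42 and 0.65.

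Microglial markers were far higher at the same spots. The plaque-associated list had medians of 1.78 and 1.42, with 7 of 7 tested genes called higher in both sections. The homeostatic list had 0.84 and 0.90, with 6 of 7, against 2.28% of all genes. The class I list had 0.60 and 0.62, with 3 of 6 called higher in both sections, against the same 2.28%, and 1 below 0 in both. Their part in the Psmb8 result was not tested. At neighbour spots Psmb8 was at 14.1 against 8.26 CPM in 5xFAD (0.77, 0.35 to 1.18) and 15.2 against 13.04 in 5xFAD-Dp16 (0.19, -0.13 to 0.52). In the same order Psmb10 had 0.06 and 0.03, and Psmb9, untested, 0.10 and 0.35. Psme1 had -0.08 and -0.26 (-0.40 to -0.12) and Psme2 -0.06 and -0.20 (-0.37 to -0.03), none past 1.2-fold. There 1 and 0 of the 45 genes were higher, against 3.4% and 3.96% of all genes, and 0 and 1 (Psmd1, -0.31) lower, against 4.15% and 5.05%. None was called in both sections in either direction, against 0.779% of all genes higher and 1.21% lower. Without plaque or neighbour marks, the inducible share of catalytic UMIs was 13.3% in 5xFAD and 15.3% in 5xFAD-Dp16, next to 13.7% in wild-type and 15.4% in Dp16. At plaques it was 15.7% (14.4 to 17.1) and 16.9% (15.7 to 18.1). Unlike the ratios above, these shares pool all regions of a section and were not matched by region. The share also differs between regions, as given below, so the part of region in these differences was not tested.

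**Figure D4:**
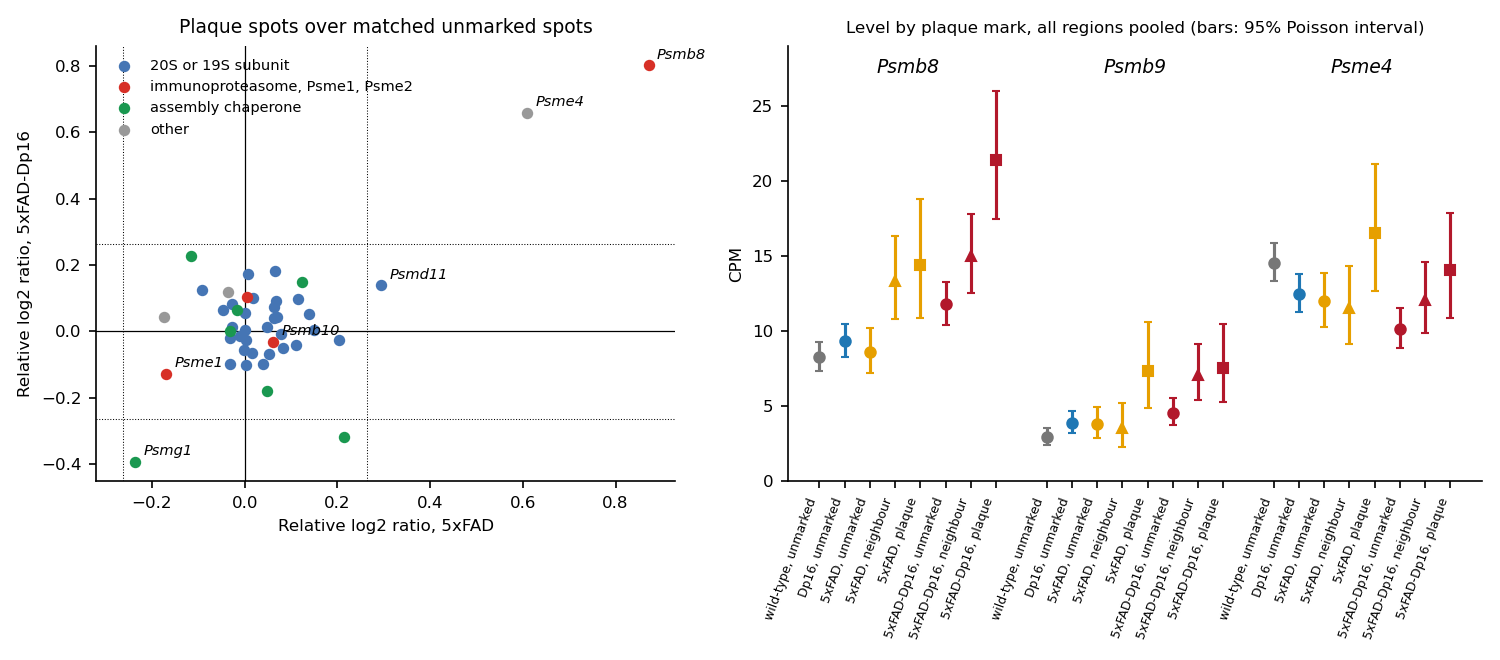
Left, relative log2 ratio of plaque over matched unmarked spots for the 45 tested genes in 5xFAD (x axis) and 5xFAD-Dp16 (y axis), with dotted lines at 1.2-fold. Right, level in CPM of Psmb8, Psmb9 and Psme4 by plaque mark with all regions pooled, bars being 95% Poisson intervals; Psmb8 and Psme4 lie past 1.2-fold in both sections on the left.

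Regions were compared with the sections as replicates. Counts were summed per section and region label for 12 labels with at least 30 spots in every section, and each label was tested against the mean of the others with edgeR's quasi-likelihood test, with section as a block and Benjamini-Hochberg adjustment over all 13167 genes and all labels. Of the 50 names 47 had enough counts. Over all labels 69 of 564 gene-label pairs were higher, against 19% of the pairs of all genes, and 75 were lower, against 15.1%, both below the share of all genes. No source used here says how the labels were made, and abbreviations are left as deposited. The replicates differ in genotype, and without the 5xFAD-Dp16 section the calls were 44 and 49.

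Hypothalamus was the label with the most proteasome genes higher. There 24 of 47 genes were higher, against 27.1% of all genes, and 1 lower, against 17.9%, with a median log2 difference of 0.20 against 0.05 over all genes. All 4 structural beta subunits and 16 of the 31 constitutive subunits were among them. The highest was Psmc5, an ATPase of the 19S base, at 188 to 292 CPM over the 4 sections (log2 0.77, SE 0.06, edgeR adjusted p = 3.6e-14). Psme1 followed at 92.5 to 128 CPM (0.71, SE 0.10, adjusted p = 9.5e-08). Psmd1 (0.69, SE 0.09), Psmb10 (0.62, SE 0.07), Psmg1 (0.53, SE 0.12) and Psme2 (0.51, SE 0.07) were each above the mean of the other labels in 4 of 4 sections. Psme4 was the one gene lower there, at 6.46 to 9.57 CPM (-0.69, SE 0.16, adjusted p = 0.00043), and Psmc3ip had -0.47 with an adjusted p of 0.11.

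The inducible catalytic subunits did not share 1 regional pattern. In FB, Psmb8 was at 16.7, 20.2, 18.4 and 28.8 CPM, and in the other 11 labels it ran from 1.70 to 19.6. The log2 difference was 1.12 (SE 0.16, edgeR adjusted p = 2.4e-07). Psmb9 was at 5.90, 7.49, 9.41 and 13.9 CPM there (1.32, SE 0.24, adjusted p = 1.7e-05). Psmb10 in FB was at 62.6, 78.7, 56.5 and 77.4 CPM, below its mean in the other labels in all 4 sections (-0.50, SE 0.08, adjusted p = 3.4e-06). Constitutive subunits were low in FB too, with 2 genes higher, against 25.9% of all genes, and 16 lower, against 26.5%, 12 of them constitutive. Psme3, the gamma subunit of the nuclear 11S activator, had the second lowest value (-0.35). FB was the label with the highest oligodendrocyte markers, summed at 19102 to 24916 CPM, and with the highest homeostatic microglial markers, 335 to 701 CPM. Their part in these values was not tested.

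In VL, which holds the choroid plexus markers (142355 to 258188 CPM summed), 17 genes were lower, against 28.2% of all genes, and 7 higher, against 26.7%. Of the lower, 14 were constitutive subunits, with the ATPase Psmc1 lowest among them (-0.56, SE 0.07). Psmb10 was at 39.9 to 52.3 CPM (-0.92, SE 0.10, edgeR adjusted p = 2.4e-10), the lowest of all 47. Psmc3ip was the highest (1.79, SE 0.22), at 8.12 to 20.1 CPM. Psmb9 (0.99), Psme1 (0.73), Psmb8 (0.71), Psme2 (0.66) and Psme4 (0.65) were higher too. The values of Psmb9 and Psme1 turned to -0.08 and -0.03 without the spots of clusters 12 and 13, and Psme2 was then at 0.32 with an adjusted p of 0.13. Psmb8 in VL lost its call without the wild-type section (0.63, adjusted p = 0.052) or without Dp16 (0.52, adjusted p = 0.11), and Psmb9 without wild-type (0.69, adjusted p = 0.13).

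**Figure D5:**
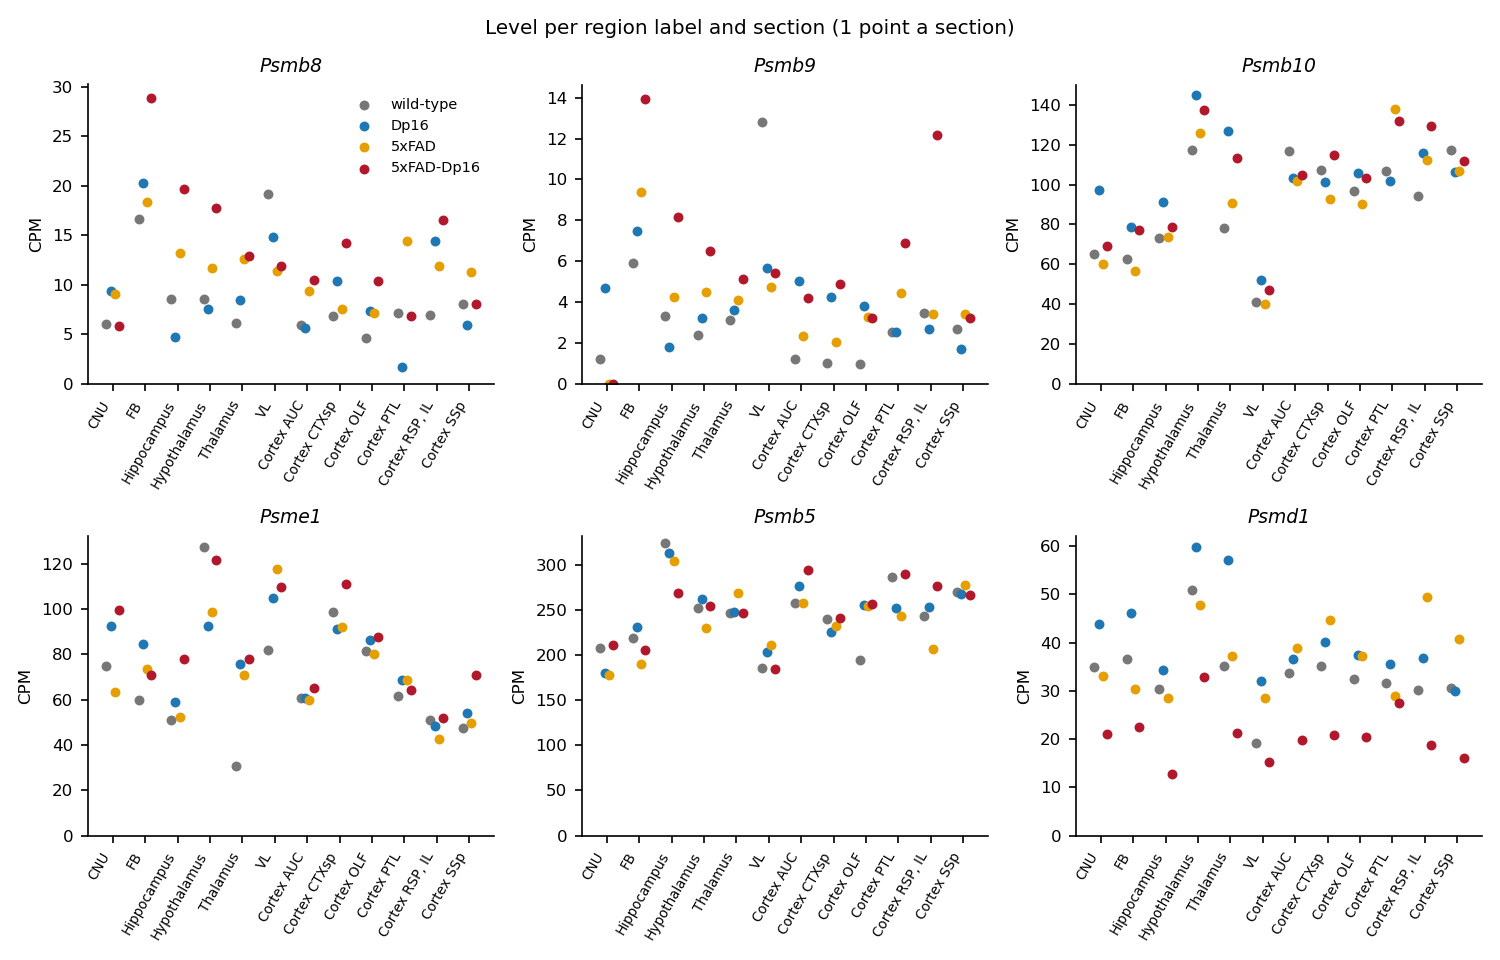
Level in CPM (y axis, from 0) of 6 proteasome genes in 12 region labels (x axis), 1 point for each section. In FB, Psmb8 and Psmb9 reach 28.8 and 13.9 CPM in 5xFAD-Dp16, whereas Psmb10 is at 39.9 to 52.3 CPM in VL and 117 to 145 in Hypothalamus.

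In Hippocampus 7 genes were higher, against 18.8% of all genes, and 3 lower, against 14.3%. Psmg4 (0.41, SE 0.08) and Psmb5 (0.38, SE 0.06) led, Psmb5 being at 269 to 325 CPM, while Psmd1 (-0.31), Psme1 (-0.29) and Psmb10 (-0.21) were lower. These 3 lower calls were lost when single sections were left out: the adjusted p of Psmd1 was 0.062 without 5xFAD and 0.13 without 5xFAD-Dp16, and that of Psme1 0.22 without 5xFAD and 0.13 without Dp16. Psmb10 lost its call without 5xFAD (0.12), 5xFAD-Dp16 (0.13) or wild-type (0.074). In Thalamus 5 genes were higher, against 27.3%, and 14 lower, against 18.1%. The ATPases Psmc1 (0.42) and Psmc5 (0.41) were highest and Psmc3ip (-1.40) and Psme1 (-0.32) lowest. Over the 4 sections the inducible share of catalytic UMIs was 8.85 to 12.3% in VL, 10.7 to 13.8% in Hippocampus and 15.4 to 18.4% in Hypothalamus.

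The other 7 labels are given by their counts. CNU had 2 genes higher, against 11.3% of all genes, and 9 lower, against 9.88%. Cortex CTXsp had 7 higher (15.9%) and 2 lower (10.1%), Cortex OLF 5 (20.5%) and 2 (16.4%), and Cortex PTL 5 (12.2%) and 1 (10.6%). Cortex RSP, IL had 3 higher (11.4%) and 4 lower (7.84%), Cortex AUC 1 (17.3%) and 4 (12.3%), and Cortex SSp 1 (13.5%) and 2 (9.57%). In CNU the share of proteasome genes called lower was 19.1%, above that of all genes, and in Cortex RSP, IL it was 8.51%, close to it.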

How the data were processed

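Counts of unique molecules per gene and spot were deposited as a raw matrix with a spot table. The submitters' processing notes name Space Ranger, Seurat and mm10, without versions in the sources used here. The deposited spot table gives the percent of mitochondrial counts, section, region, plaque mark and, as a score that is only a name, the authors' cluster number of each spot. All 10549 spots were kept, summed per section and scaled to CPM. Ratios have exact conditional binomial intervals, and where a section had no count the ratio used 3 counts. Regions were tested on summed counts with edgeR 4.0.16 (R 4.3.3), DESeq2 1.42.0 being an alternative. Plaque ratios were matched by region (at least 10 spots of each kind) with normal intervals on the log scale. The methods were tested on simulated data. For the ratios these data held counting error alone, so they could not test variation between animals or sections. Intervals cover counting error only. No doublet caller was run. Other alternatives were scaling, gene, fold, spot and region filters.

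The genes and lists were chosen with earlier results of these data known. Named were the 3 catalytic pairs, Psme1, Psme2 and Psmg1 always, the 4 highest and 4 lowest per genotype effect by the weaker of 2 ratios, the 5 highest and 4 lowest at plaques, 2 at each end per region described, and for other lists the genes called in both pairs or else the 2 most abundant, of which 1 is not reported here. Python 3.11.15, numpy 2.4.6, scipy 1.17.1 and pandas 2.3.3 were used.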

Additional observations from a re-analysis of the deposited data

Results flagged for a closer look

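Psmd1 was called higher in Dp16 over wild-type (relative log2 0.46) and lower in 5xFAD-Dp16 over 5xFAD (-0.73), a difference of -1.19 between pairs that share no section. With 1 section per genotype this difference was not tested.

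In 84 sets of 4 sections (Psmb8, Psmb9, Psmb10, Psme1, Psmg1, Psmd1 and the summed constitutive subunits in 12 region labels), 1 section stood far from the others in 4 sets, and chance flags about 1 in 20. Psmb9 was at 12.2 CPM in 5xFAD-Dp16 in Cortex RSP, IL, and at 12.8 CPM in wild-type in VL. Psme1 was at 65.4 CPM in 5xFAD-Dp16 in Cortex AUC, and at 30.8 CPM in wild-type in Thalamus.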

How the results depend on the processing

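No paired analysis was possible between genotypes because each has 1 section and the labels give no replicate numbers that pair them; regions were tested with section as a block and plaque spots matched within a section. The count of 4 genes higher with the duplication in both pairs became 9 at 1.1-fold, 1 at 1.5-fold, 2 at a minimum of 20 CPM and 1 with region-standardised levels. The count of 1 for 5xFAD became 3 at 1.1-fold, 0 at 1.5-fold, 2 at a minimum of 1 CPM, 0 at a minimum of 20 CPM, 2 with the mean over spots and 2 without clusters 12 and 13. Counts of 0 lower in both pairs or both sections stayed 0 under each alternative run. The median of constitutive subunits was 0.085 for Dp16 over wild-type with TMM factors and 0.026 for 5xFAD-Dp16 over Dp16 with the mean over spots. TMM factors put the median gene at -0.05 in Dp16 over wild-type and -0.01 in 5xFAD-Dp16 over 5xFAD. This set Psmb8 in the former and Psmb10 in the latter at the edge of the 1.2-fold call. Without Hypothalamus the inducible share was 13.5% in 5xFAD and 15.2% in 5xFAD-Dp16. At plaques the count of 2 became 0 at a minimum of 20 CPM, which removes both genes, and 1 with at least 30 spots of each kind. Between regions, calls ranged from 44 to 55 higher and from 49 to 61 lower on leaving out 1 section each, and lower calls were 46 without clusters 12 and 13. Psmb9 and Psme1 in VL reversed there, to -0.081 and -0.026. Where no construction is named, the cause was not tested. Depth limits the rarer genes: Psmb9 had 101 to 203 UMIs per section.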
